A study of Mus musculus with 51 samples.

Results

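Distal sites gained by diplonema were defined here as places in the mouse genome that carried an H3K4me3 peak in both diplonema libraries, in neither leptonema library and in neither zygonema library, and that lay more than 500 bp from every annotated transcript 5′ end. Peaks of the 10 H3K4me3 lists were merged into 25578 sites, of which 13069 were distal by that distance, and 478 of the distal sites had these calls. The members were selected on the H3K4me3 calls of leptonema, zygonema and diplonema and on the distance, so these values are a description and not a result. The calls in early and late pachynema, the lists of 2 other antibodies, the place in the genome and the sequence were not used in the choice. The same calls were found at 787 sites within 500 bp of a 5′ end, called promoters with the same calls below.

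Trimethylation of lysine 4 on histone H3 (H3K4me3) is found mostly at active promoters, and dimethylation (H3K4me2) extends to enhancers and to the flanks of promoters. In mammalian meiosis, the methyltransferase PRDM9 also places H3K4me3 at hotspots of DNA double-strand breaks early in prophase, away from promoters. During pachynema, spermatocytes switch on many of the genes that are used after meiosis, under regulators such as the transcription factor A-MYB. Acetylation of lysine 9 on histone H3 (H3K9ac) marks open promoters and enhancers.

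The nuclei were taken from the whole testis of adult wild-type male C57Bl/6J mice, fixed, stained for the nuclear proteins SCP3, STRA8, H1t and SCP1 and sorted by DNA content and fluorescence into leptonema and zygonema nuclei, early and late pachynema nuclei and diplonema nuclei. ChIP-Seq was done with an EpiCypher antibody to H3K4me3 in experiments 1 and 2 of each stage, with an Abcam antibody that binds both H3K4me2 and H3K4me3 (H3K4me2/3) in experiment 2, and for H3K9ac in experiment 1. The antibody entry of the H3K9ac libraries in the labels names H3K4me3, whereas their titles and the methods of the study name H3K9ac. Every group therefore shares its genotype and strain. The groups differ in the stage that was sorted and, by the paper, in purity, and leptonema came from a separate sort. For early pachynema experiment 2 the paper lists different purity and chromatin amounts for the EpiCypher and Abcam antibodies. Each stage had 2 libraries for H3K4me3 and 1 for each other antibody. Nothing in the sources used here says whether the experiments used separate animals, so the tests measure the spread between these libraries.

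A list holds the start and end of each peak with no height, score or read count, and the depth behind a call is unknown. The H3K4me3 lists held 4883 to 15699 peaks, and the 2 diplonema lists held 6645 and 12071. The H3K4me2/3 lists held 17561 to 30943 peaks and the H3K9ac lists 516 to 16003. Of 24 marker genes of somatic testis cells, 0 to 3 had an H3K4me3 peak at a 5′ end in any 1 list. These were Sox9, Wt1 and Gata4 in leptonema experiment 2, Wt1 in zygonema experiment 2, and Inha and Insl3 in diplonema experiment 2. The other genes, among them Amh, Cyp11a1, Star, Acta2, Csf1r and Pecam1, had none in any of the 10 lists. Of 17 spermatogonial genes, 6 and 8 had a peak in leptonema and 2 and 5 in diplonema, and their part in the results was not tested. Of 88 genes of sperm structure, 15 and 26 had a promoter peak in leptonema and 45 and 46 in diplonema, and of 57 genes of meiotic prophase 48 and 52 in leptonema and 27 and 45 in diplonema. For 39 later meiotic and spermatid regulators these numbers were 30 and 31, and 32 and 35, and for 35 genes of the meiotic division cell cycle 27 and 31, and 30 and 33. Of all protein-coding genes on chromosomes 1 to 19, 39.2% and 47.1% had a promoter peak in the leptonema lists and 29.3% and 46.8% in the diplonema lists.

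The 6 members with the highest mean percentile of width within the 2 diplonema lists lay on chromosomes 10, 12, 5 and 8. The 200 bases at the centre of the stretch shared by both diplonema peaks are printed for 4 of them, read from the plus strand of GRCm38.p6 (mm10) in RefSeq. They show the sequence of members that had a wide peak in both diplonema libraries.
chr12:33936123-33936322: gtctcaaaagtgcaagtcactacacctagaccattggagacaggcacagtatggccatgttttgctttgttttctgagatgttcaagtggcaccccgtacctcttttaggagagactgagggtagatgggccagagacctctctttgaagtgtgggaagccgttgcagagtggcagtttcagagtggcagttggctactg
chr5:120630243-120630442: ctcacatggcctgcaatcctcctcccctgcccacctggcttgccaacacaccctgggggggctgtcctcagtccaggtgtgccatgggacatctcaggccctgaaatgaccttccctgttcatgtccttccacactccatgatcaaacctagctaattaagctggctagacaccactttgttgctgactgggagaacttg
chr10:119131757-119131956: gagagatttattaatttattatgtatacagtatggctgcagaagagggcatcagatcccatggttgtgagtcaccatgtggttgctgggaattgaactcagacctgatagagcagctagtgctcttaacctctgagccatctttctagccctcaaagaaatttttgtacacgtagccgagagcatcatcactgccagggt
chr8:22453443-22453642: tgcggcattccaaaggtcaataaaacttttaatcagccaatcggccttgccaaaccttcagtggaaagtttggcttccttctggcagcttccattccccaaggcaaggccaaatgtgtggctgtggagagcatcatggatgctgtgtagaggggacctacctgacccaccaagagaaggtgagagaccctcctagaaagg

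On either strand, the 4 windows held no match to the letters TAACNG of the MYB site, CACGTG of the E-box, GTTGCC of the RFX half-site, TGACGT of the CRE half-site or GNTGCTNCT of the PRDM9 core, so they are printed in lower case throughout. The windows held 0 to 2 CpG dinucleotides each. Between 0% and 77.5% of their bases were masked as repeats in the reference.

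By width, the second of the 6, chr12:33935033-33937724, had no H3K4me2/3 peak before late pachynema, where the peak was 3949 bp wide, against 4936 bp in diplonema. It lay 6577 bp upstream of the nearest GENCODE 5′ end, that of the noncoding gene Gm40383. The third, chr5:120629154-120631624, overlapped coding sequence of Cfap73, a gene named for cilia and flagella, and had H3K4me3 peaks of 289 bp and 1549 bp in late pachynema and of 2158 bp and 2471 bp in diplonema. The sixth, chr10:120172745-120175231, lay in an intron of Irak3, a negative regulator of Toll-like receptor signalling. Its H3K4me2/3 peak was first called in early pachynema, at 2420 bp. All 6 had a peak in late pachynema experiment 2, between 977 bp and 1549 bp wide.

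Most members had no H3K4me3 peak before late pachynema. Only 22 of the 478 (4.60%) had their first peak in early pachynema, 223 (46.7%) had it in late pachynema and 233 (48.7%) had it in diplonema. In early pachynema, 20 members (4.18%) were called in experiment 1 and 13 (2.72%) in experiment 2, against 1.62% and 1.01% of all distal sites. In late pachynema, 44 members (9.21%) were called in experiment 1 and 241 (50.4%) in experiment 2, against 1.32% and 7.96% of all distal sites. Both late pachynema lists were above both early pachynema lists. The 2 late pachynema lists differed in length, with 5189 peaks in experiment 1 and 9124 in experiment 2. For the library with the longer of these lists, the paper gives a lower purity and less starting chromatin. The part of list length, purity and chromatin amount in these shares was not tested.

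**Figure D1:**
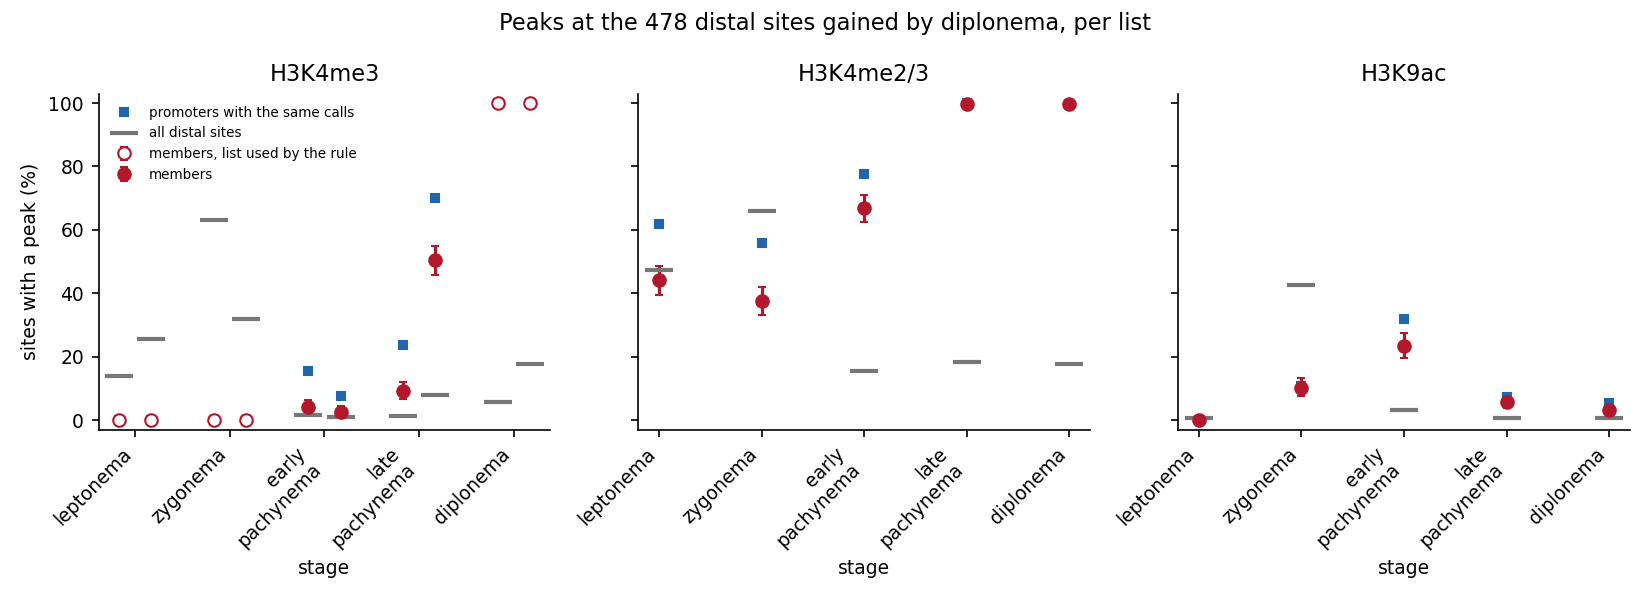
Share of sites with a peak (%) in each list, by stage, for H3K4me3, H3K4me2/3 and H3K9ac. Red circles are the 478 members with 95% exact binomial intervals over sites (open where the rule used the list), blue squares the 787 promoters with the same calls, and grey bars all 13069 distal sites. In late pachynema the members stand at 9.21% and 50.4% for H3K4me3 and at 99.8% for H3K4me2/3.

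The mean share of members called was 29.8% ± 29.1 (SD, n = 2 libraries) in late pachynema and 3.45% ± 1.04 (SD, n = 2) in early pachynema, a difference of 26.4 percentage points. A two-sided exact permutation test gave p = 0.333, which is the lowest value that this design can reach. The rule required a peak in diplonema, the stage after late pachynema, and none in zygonema, the stage before early pachynema. It may therefore favour the direction of this difference, and the test is no independent support for it. The size of the difference rested on late pachynema experiment 2: it was 5.74 points without that library and 47.0 points without experiment 1. Of the 44 members called in late pachynema experiment 1, 41 were also called in experiment 2, and 11 members were called in both early pachynema lists. Only 1 member, at chr10:122519593-122520278, had a peak in early pachynema and none in late pachynema. Promoters with the same calls were called more often than the members in each of these lists, at 15.6% and 7.62% in early pachynema and 23.6% and 70.1% in late pachynema.

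Members first called in pachynema had wider diplonema peaks than those first called in diplonema. The median H3K4me3 peak over members first called in early pachynema was 597 bp wide in diplonema experiment 1 and 1247 bp in experiment 2, over members first called in late pachynema 641 bp and 1124 bp, and over members first called in diplonema 429 bp and 826 bp. Across all members the medians were 542 bp and 968 bp, against 689 bp and 773 bp for all peaks of the 2 lists. Because diplonema peaks chose the members, these widths are a description. The rule also used the diplonema lists themselves, which held a peak at 5.72% and 17.6% of all distal sites.

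The H3K4me2/3 antibody gave a different course. A peak lay over 211 members (44.1%) in leptonema and over 179 (37.4%) in zygonema. The early pachynema list had a peak at 320 members (66.9%), and the late pachynema and diplonema lists each had one at 477 (99.8%). In the order of the stages, the shares of all distal sites were 47.2%, 66.0%, 15.4%, 18.3% and 17.9%. The rule sets much of this comparison, because the antibody also binds H3K4me3, the members had no H3K4me3 peak in leptonema or zygonema, and 63.3% and 31.9% of all distal sites had one in the zygonema lists. No direction against the distal background is therefore read from these shares. Promoters with the same calls stood at 61.8%, 56.0%, 77.5%, 99.9% and 99.7%. The mean share of members over the 3 later stages was 88.8% ± 18.96 (SD, n = 3 libraries), against 40.8% ± 4.73 (SD, n = 2) over leptonema and zygonema. This difference of 48.0 points had p = 0.2 in a two-sided exact permutation test over libraries, where the smallest possible p was 0.1. The rule favoured the direction of this difference, as it required H3K4me3 in diplonema and none in leptonema or zygonema. The test is therefore no independent support for it. The difference was 27.3 points when diplonema experiment 1 was left out of the choice of members. The H3K4me2/3 libraries came from experiment 2 and each stage had 1, so that no difference between neighbouring stages can be set against replicates.

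Nearly all members therefore already carried an H3K4me2/3 peak in late pachynema, including the 233 without an H3K4me3 peak there. The first H3K4me2/3 call came at an earlier stage than the first H3K4me3 call at 429 members (89.7%) and at the same stage at 48 (10.0%). At the 242 members with an H3K4me2/3 peak in leptonema or zygonema this order was fixed by the rule, which allowed no H3K4me3 peak there. Of the 108 members with a first H3K4me2/3 call in early pachynema, 4 had their first H3K4me3 call at that stage, 52 in late pachynema and 52 in diplonema, and of the 127 first called by H3K4me2/3 in late pachynema, 44 had it at that stage and 83 in diplonema. The lists of this antibody were longer at every stage, and the part of list length in that order was not tested. The one member with no H3K4me2/3 peak at any stage, chr10:80897945-80898571, overlapped an exon and lay 2211 bp from a 5′ end of Timm13, a mitochondrial import gene.

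Patterns over the 5 stages fell into few kinds. A peak at every stage was found at 138 members (28.9%), late pachynema and diplonema alone at 127 (26.6%), and early pachynema onward at 108 (22.6%). A further 46 had leptonema and then early pachynema onward, 28 had zygonema onward, and 30 had a peak in leptonema or zygonema, none in early pachynema and peaks in both later stages. In all, 242 members (50.6%, 95% exact binomial interval 46.0% to 55.2%) had an H3K4me2/3 peak in leptonema or zygonema, where the rule allowed no EpiCypher peak. Of those, 148 had it at both stages, 63 in leptonema alone and 31 in zygonema alone. Of all distal sites, 47.2% had an H3K4me2/3 peak in leptonema and 66.0% in zygonema, and the rule sets much of that comparison.

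**Figure D2:**
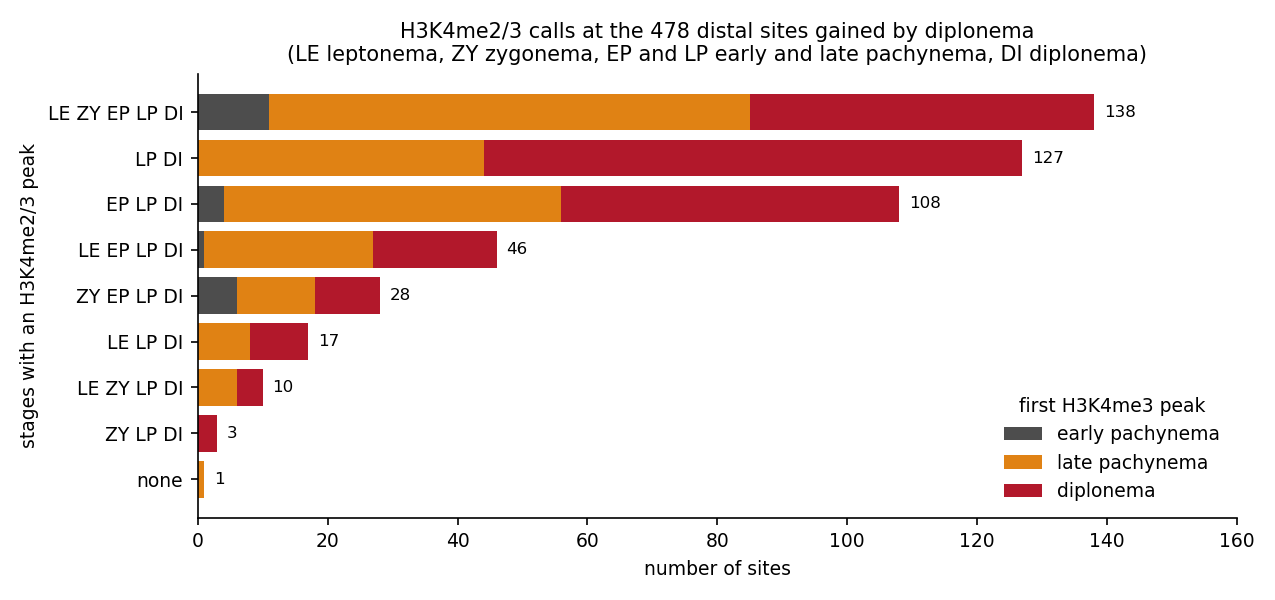
Number of members with each pattern of H3K4me2/3 peaks over the 5 stages (bars, with totals at the ends), coloured by the stage of the first H3K4me3 peak. The 3 most frequent patterns hold 138, 127 and 108 of the 478 members, and members first called by H3K4me3 in diplonema make up 83 of the 127 with late pachynema and diplonema alone.

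The earlier H3K4me3 was first called, the more often an H3K4me2/3 peak was called in zygonema and early pachynema. Among the 22 members whose H3K4me3 was first called in early pachynema, 12 had an H3K4me2/3 peak in leptonema, 17 in zygonema and 22 in early pachynema. The 12 are 54.5% (interval 32.2% to 75.6%) and the 17 are 77.3% (interval 54.6% to 92.2%). As the antibody also binds H3K4me3, the 22 of 22 partly follow from the grouping. Among those first called in late pachynema, 114 of 223 (51.1%) had one in leptonema, 92 (41.3%) in zygonema and 164 (73.5%) in early pachynema. Among those first called in diplonema, 85 of 233 (36.5%) had one in leptonema, 70 (30.0%) in zygonema and 134 (57.5%) in early pachynema. In leptonema the interval of the 22 includes both other shares. The width of the diplonema peaks also differed between these groups, and its part was not tested.

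Where the H3K4me2/3 peak was present at several stages, it was wider in late pachynema and diplonema than before. Its median width over the members was 686 bp in leptonema and 637 bp in zygonema, and 782.5 bp and 1903 bp in early and late pachynema, against 2386 bp in diplonema. The medians of the whole lists, in the same order, were 870, 836, 864, 1121 and 1294 bp. From leptonema to diplonema the median also rose from 832 bp to 2638 bp at promoters with the same calls. Over all distal sites it rose from 756 bp to 1462 bp. The antibody also binds H3K4me3, which the rule required in diplonema and excluded in leptonema and zygonema. The rule therefore favours wider later peaks at the members. Site by site, the diplonema peak was wider than the leptonema peak at 206 of the 211 members that had both, and the late pachynema peak was wider than the early pachynema peak at 316 of 320. These counts were not made for the other sets, so they are not read as particular to the members. Between late pachynema and diplonema, 390 of 477 members (81.8%) had the wider peak in diplonema, against 78.2% of promoters with the same calls and 68.9% of distal sites with a peak at both stages. In leptonema the members had narrower H3K4me2/3 peaks than the 194 distal sites that had an H3K4me3 peak in both diplonema lists and in a leptonema or zygonema list, whose median was 1141 bp, whereas in diplonema the medians were 2386 bp and 2276.5 bp. Of the 477 H3K4me2/3 peaks over members in diplonema, 38 (7.97%) reached to within 500 bp of a GENCODE 5′ end.

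**Figure D3:**
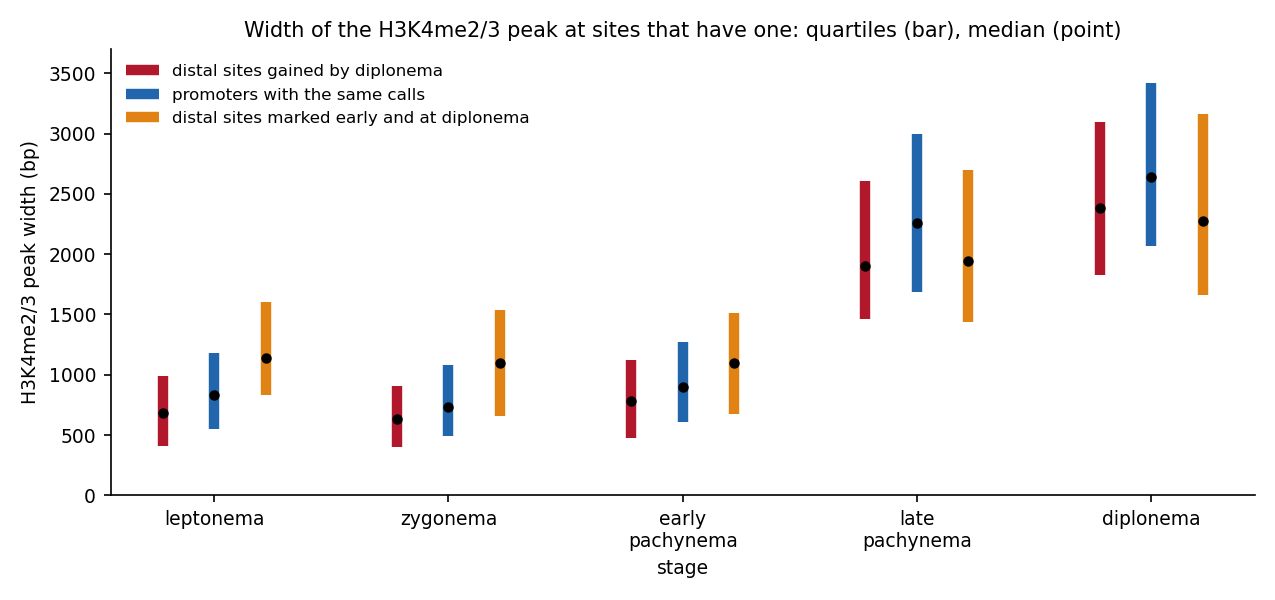
Width in bp of the H3K4me2/3 peak at sites that have one, by stage, as quartiles (bars) and medians (points). Red is the members, blue the promoters with the same calls and orange the distal sites marked early and at diplonema. The median of the members is 782.5 bp in early pachynema and 1903 bp in late pachynema.

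H3K9ac covered fewer of the members, most of them in early pachynema. No member had an H3K9ac peak in leptonema (0 of 478, which allows a share of up to 0.628%), and 49 (10.3%) had one in zygonema. A peak was called at 112 members (23.4%) in early pachynema, at 27 (5.65%) in late pachynema and at 16 (3.35%) in diplonema. The shares of all distal sites were 0.620%, 42.7%, 3.24%, 0.681% and 0.612%. From early pachynema on, promoters with the same calls had higher H3K9ac shares than the members, at 32.0%, 7.24% and 5.34%. Distal sites marked early and at diplonema also had higher shares than the members at these stages, with 56.2% in early pachynema. The early pachynema H3K9ac peaks are therefore not read as particular to the members. The members had been chosen for no H3K4me3 peak in zygonema, so their place against all distal sites partly follows from the rule. The list lengths went from 16003 peaks in zygonema and 7744 in early pachynema to 1727 in late pachynema and 516 in diplonema, and their part in these shares was not tested. Peaks at members made up 0.306% of the zygonema list, 1.46% of the early pachynema list, 1.56% of the late pachynema list and 3.10% of the diplonema list.

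Over the 3 later stages the mean H3K9ac share was 10.8% ± 11.0 (SD, n = 3 libraries), against 5.13% ± 7.25 (SD, n = 2) over leptonema and zygonema. The difference of 5.68 points was within the spread between stages (two-sided exact permutation test, p = 0.7, smallest possible 0.1). Each stage had 1 H3K9ac library, so the spread between replicates could not be measured. At 331 members (69.2%) no H3K9ac peak was called at any stage. The most frequent pattern was a peak in early pachynema alone, at 66 members. Among members with H3K4me3 first called in early pachynema, 18 of 22 had an H3K9ac peak in early pachynema, against 64 of 223 first called in late pachynema and 30 of 233 first called in diplonema. An H3K9ac peak in early pachynema or later lay over 82 of the 242 members with early H3K4me2/3 (33.9%, interval 27.9% to 40.2%) and over 41 of the 236 without it (17.4%, interval 12.8% to 22.8%). Sites of 1 list share their library, so these intervals cover counting error over sites and nothing else.

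The members lay mainly between genes. By GENCODE M21, 264 (55.2%, interval 50.6% to 59.7%) were intergenic, 139 (29.1%) lay in introns and 75 (15.7%) touched an exon. Among all distal sites these shares were 44.1%, 39.8% and 16.0%. Of the 75 exonic members, 56 overlapped coding sequence, 6 an untranslated part of a coding transcript and 13 a noncoding transcript. Of the 214 members inside genes, 186 lay in a protein-coding gene. The distal sites with H3K4me3 in both zygonema lists and in no later list, 3125 in number and a class in which hotspots would fall, were intronic in 44.8% and intergenic in 39.2%. The distal sites marked both early and at diplonema were intergenic in 51.0% (interval 43.8% to 58.3%), intronic in 13.9% and exonic in 35.1%.

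The distance to the nearest 5′ end ran from 536 bp to 293309 bp with a median of 10670 bp, and that of all distal sites had a median of 10911 bp. Within 10000 bp lay 48.1% of the members and 47.3% of all distal sites. Beyond 50000 bp lay 57 members (11.9%). Members lay downstream of the nearest 5′ end in 249 cases and upstream in 229. The nearest 5′ end belonged to a protein-coding gene for 239 members (50.0%), a pseudogene for 84 (17.6%) and a long intergenic noncoding RNA for 67 (14.0%), against 51.9%, 17.1% and 11.2% of all distal sites. In distance and in the kind of nearest gene the members thus lay close to the distal background.

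**Figure D4:**
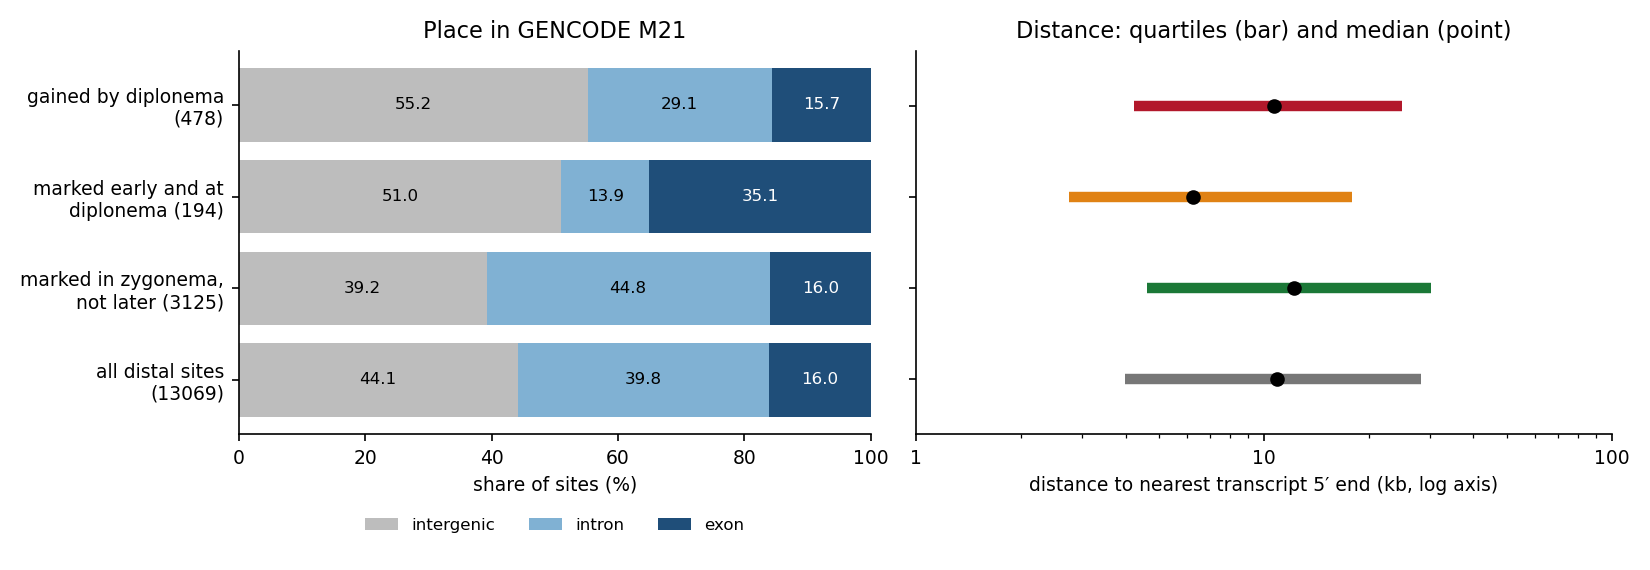
Left, share of sites (%) that are intergenic, intronic or exonic in GENCODE M21. Right, distance in kb (log axis) from each site to the nearest transcript 5′ end, as quartiles and median. The members are intergenic in 55.2%, against 44.1% of all distal sites and 51.0% of those marked early and at diplonema. Their median distance is 10670 bp, against 10911 bp for all distal sites.

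As at all distal sites, the 5′ end nearest to a member mostly had no H3K4me3 peak. At 390 members (81.6%, interval 77.8% to 84.96%) the nearest 5′ end had no peak within 500 bp in any of the 10 lists. At 25 (5.23%) it had peaks in both diplonema lists and in a leptonema or zygonema list, and at 9 (1.88%) it had the same calls as the members. For all distal sites these shares were 80.4%, 5.64% and 1.38%, and the intervals of the members include them.

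Whether a site counts as distal depended on the annotation. RefSeq, which holds predicted transcript models that GENCODE M21 lacks, placed a transcript 5′ end within 500 bp of 87 members (18.2%, interval 14.8% to 22.0%), and at 76 of these the nearest RefSeq 5′ end belonged to predicted models alone. The share was 5.07% over all distal sites, 2.46% over distal sites marked in zygonema and not later, and 21.1% over distal sites marked early and at diplonema. At 59 of the 87 the RefSeq transcript was a long noncoding RNA and at 25 an mRNA. Of the 6 widest members, 4 were among the 87. Predicted noncoding transcripts began inside or within 12 bp of the sites on chromosomes 12 and 8 and of chr10:119130393-119132972, and a predicted Irak3 transcript began inside the Irak3 site. That site has no sequence printed above because its centre falls in the exon of the predicted transcript.

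The members had a higher median CpG ratio than all distal sites and a lower one than distal sites marked early and at diplonema, but were CpG-rich no more often than all distal sites. In the 300 bp around each site's midpoint, the median ratio of observed to expected CpG was 0.31 at the members, 0.21 at all distal sites, 0.16 at distal sites marked in zygonema and not later, 0.40 at promoters with the same calls and 0.56 at distal sites marked early and at diplonema. The median GC content of these sets was 49.7%, 46.3%, 44.0%, 52.3% and 54.3%. With GC above 50% and a CpG ratio above 0.6 taken as CpG-rich, 38 members (7.95%, interval 5.69% to 10.7%) were CpG-rich, against 9.53% of all distal sites, 20.1% of promoters with the same calls, 39.7% of distal sites marked early and at diplonema and 0.608% of those marked in zygonema and not later. Repeats covered at least 50% of the window at 54 members (11.3%) and at 14.2% of all distal sites.

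Early H3K4me2/3 and CpG content went together among the members. The 242 members with an H3K4me2/3 peak in leptonema or zygonema had a median CpG ratio of 0.43 and a median GC content of 51.5%, and 31 of them were CpG-rich (12.8%, interval 8.87% to 17.7%). The 236 without one had medians of 0.23 and 48.0%, and 7 were CpG-rich (2.97%, interval 1.20% to 6.02%). The 2 groups differed less in place, with 57.0% and 53.4% intergenic, and in distance to the nearest 5′ end, with medians of 10567 bp and 11058 bp.

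Short motifs were counted in the same windows, on both strands and with overlaps between motifs allowed. The MYB site TAACNG, the letters bound by MYB proteins such as A-MYB, was found at 180 members (37.7%, interval 33.3% to 42.2%), at 28.9% of all distal sites and at 34.3% of promoters with the same calls. The CRE half-site TGACGT, bound by CREB and CREM factors, was found at 33 members (6.90%, interval 4.80% to 9.56%) and at 3.43% of all distal sites. The E-box CACGTG was found at 35 members (7.32%, interval 5.15% to 10.0%) and at 4.81% of all distal sites. The PRDM9 core GNTGCTNCT was found at 40 members (8.37%, interval 6.05% to 11.2%), at 8.01% of promoters with the same calls and 8.25% of distal sites marked early and at diplonema, and at 15.4% of all distal sites and 20.9% of those marked in zygonema and not later. The low share was thus common to these 3 sets. TATAAA was found at 14.6% of the members and 18.8% of all distal sites, and ACAAT, the SOX core, at 33.7% and 38.7%. GTTGCC, the RFX half-site, was found at 11.7% and 9.28%, CCAAT at 38.3% and 33.4%, GGGCGG, the GC box, at 12.3% and 9.36%, and the NRF1 site GCATGCGC at 1.67% and 1.02%.

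Of the 10 motifs, the share over all distal sites lay outside the interval of the members for 8. Against all distal sites the members held the MYB, CRE, E-box, CCAAT and GC box letters more often and the PRDM9, SOX and TATA letters less often, whereas for the RFX and NRF1 letters the distal share lay inside the interval. For the GC box, SOX and TATA letters the direction turned against the sets with diplonema peaks. The GC box was found at 20.7% of promoters with the same calls and 28.9% of distal sites marked early and at diplonema, SOX at 28.6% and 17.5%, and TATA at 9.91% and 8.25%. The members are themselves among the distal sites. The E-box, CRE, GC box and NRF1 letters contain CpG, and the sets differ in CpG content. The part of base composition in these shares was not tested.

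**Figure D5:**
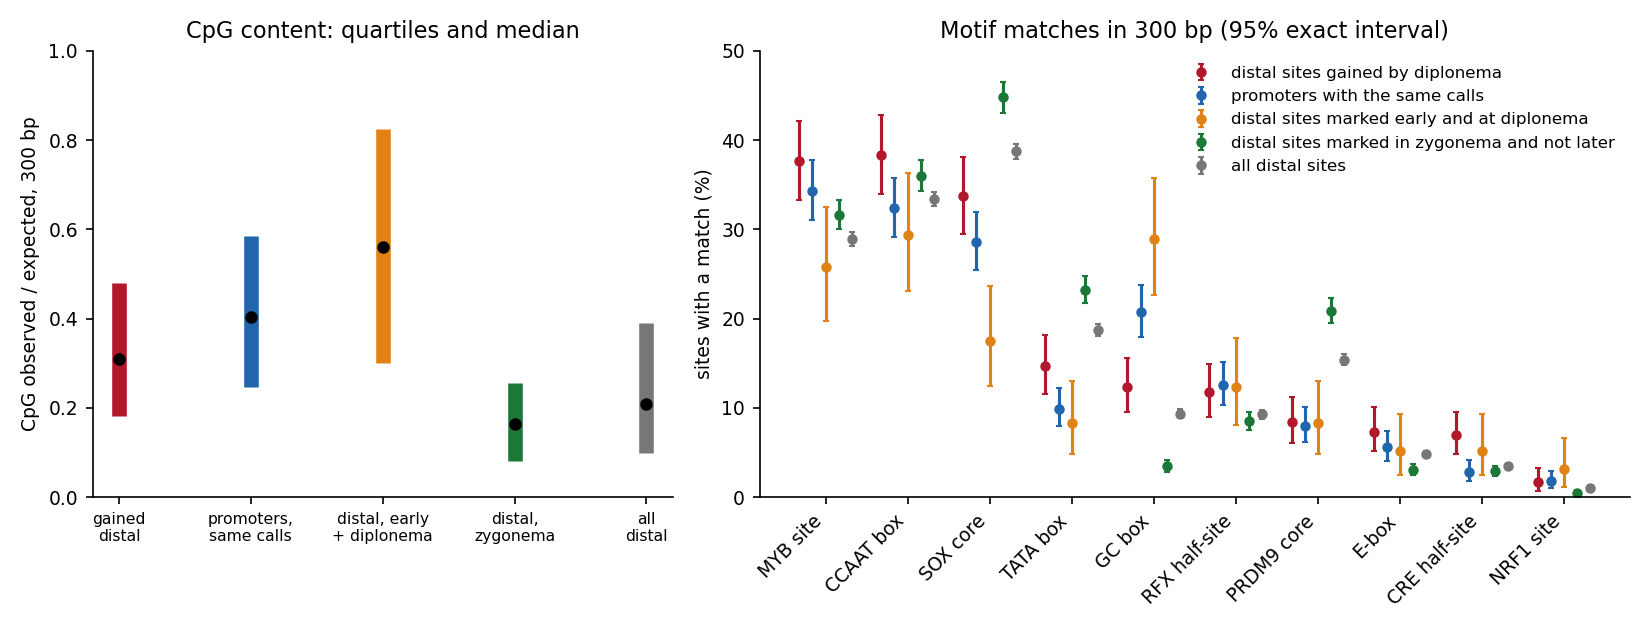
Left, ratio of observed to expected CpG in the 300 bp around the midpoint of each site, as quartiles and median. Right, share of sites (%) with a match to each motif in the same window, with 95% exact binomial intervals, in the same colours. The PRDM9 core is found at 8.37% of the members (red), 8.01% of promoters with the same calls (blue), 8.25% of distal sites marked early and at diplonema (orange) and 20.9% of those marked in zygonema and not later (green).

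Among the 22 members first called in early pachynema, the 3 widest lay on chromosomes 10, 7 and 3. The site chr7:16949149-16951094 had H3K4me3 peaks of 1100 bp and 780 bp in early pachynema, 905 bp and 1232 bp in late pachynema and 1946 bp and 1591 bp in diplonema. It was intergenic, 2407 bp from an annotated small nuclear RNA, and a predicted RefSeq transcript of Pnmal1 began inside it. Its H3K4me2/3 peak was 945 bp wide in leptonema and 519 bp in zygonema, then 1417 bp and 7891 bp in early and late pachynema and 8058 bp in diplonema. It had H3K9ac peaks of 1263 bp in early pachynema and 398 bp in late pachynema. The site chr3:34453533-34455272 lay in an intron of Sox2ot, a long noncoding gene that overlaps the gene of the transcription factor SOX2. Its H3K4me3 peaks were 263 bp and 566 bp wide in early pachynema and 1684 bp and 1579 bp in diplonema, and it had H3K9ac peaks of 2341 bp in early pachynema, 792 bp in late pachynema and 592 bp in diplonema. The third, chr10:56503932-56505858, was called in early pachynema experiment 1 alone, at 249 bp.

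The 3 widest members first called in diplonema lay in an intron of Snrnp40, a component of the spliceosome (chr4:130370837-130372659), in an exon of the long intergenic noncoding RNA gene Gm6639 (chr3:35662177-35663719) and in an intron of Hspa12a, a gene of the heat shock protein family (chr19:58874629-58876221). Their diplonema peaks were 1570 and 1756 bp, 1201 and 1543 bp, and 1165 and 1593 bp wide in experiments 1 and 2. None of the 3 had an H3K4me2/3 peak in leptonema or zygonema, and all had one in late pachynema, of 2294 bp, 5168 bp and 4175 bp. At the Snrnp40 site, 97.3% of the central window was masked as repeat.

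Of the 6 widest members with an H3K9ac peak in late pachynema or diplonema, 1 was the chromosome 7 site just described. The widest of them, chr10:119130393-119132972, had H3K9ac peaks of 1175 bp in early pachynema, 432 bp in late pachynema and 229 bp in diplonema. The site chr7:69909273-69911277 was 24913 bp from a processed pseudogene and had H3K9ac peaks of 2677 bp, 235 bp and 905 bp at the same stages. The site chr17:86229706-86231519, in an intron of the protein kinase C gene Prkce, had H3K9ac peaks of 1644 bp in early pachynema and 385 bp in late pachynema. The intergenic site chr15:97619194-97620957, 59396 bp from the 5′ end of Rpap3, had one of 1686 bp in early pachynema and one of 140 bp in diplonema. On chromosome 18, a site 23939 bp from a 5′ end of Svil, the gene of an actin-binding protein, had an H3K9ac peak in diplonema alone, of 708 bp. At the 5 of these 6 sites with an early pachynema peak, that peak was the widest of the H3K9ac peaks.

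Few members lay at the genes of 6 lists (sperm structure, meiotic prophase, later meiotic and spermatid regulators, the meiotic division cell cycle, somatic testis cells and spermatogonia). A list gene hosted the site, or had the nearest 5′ end within 50000 bp, at 5 members (1.05%), against 0.842% of all distal sites. By list, 3 of these (0.628% of the members) were at sperm structure genes, against 0.207% of all distal sites. At meiotic prophase genes there were 2 (0.418%), against 0.145%. None was at a gene of the other 4 lists, each of which took 0.0842% to 0.168% of all distal sites. These counts are too small to compare with the distal shares. The site chr7:29214684-29215715 lay 649 bp upstream of Catsperg1, a subunit of the sperm calcium channel CatSper. Its H3K4me3 peaks were 367 bp wide in late pachynema experiment 2 and 693 bp and 1032 bp wide in diplonema. H3K4me2/3 covered it at every stage, at 4474 bp in leptonema and 6173 bp in diplonema, and a predicted RefSeq transcript of Catsperg1 began inside it.

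An intron of Tekt5, a tektin of the sperm flagellum, held chr16:10383484-10384929, 10519 bp downstream of the gene's 5′ end, with diplonema peaks of 1250 bp and 1088 bp. Coding sequence of Boc, a Hedgehog co-receptor, overlapped chr16:44487217-44488058, which lay 16773 bp from the 5′ end of the flagellar gene Cfap44 and had diplonema peaks of 842 bp and 563 bp. The site chr11:121138082-121139367 was 6776 bp upstream of Tex19.1, which restrains retrotransposons in germ cells, with peaks of 1234 bp and 1286 bp. An intron of Hsf2bp, whose product binds the recombination factor BRCA2, held chr17:31981714-31982932, with peaks of 498 bp and 1219 bp. The Tekt5 and Tex19.1 sites had a peak in late pachynema experiment 2, and the Cfap44 and Hsf2bp sites were first called in diplonema and had no H3K4me2/3 peak in leptonema or zygonema.

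The members were scattered. No 2 of them lay within 10000 bp of each other, the smallest gap was 10526 bp, and the median gap between neighbours was 2790740 bp. Each of the 19 chromosomes held between 13 and 37 members, or 1.31 to 2.98 per 10 Mb. The 224 host genes included 6 with 2 members each, named here after their values were seen. Among them, Rara, the retinoic acid receptor alpha gene, held chr11:98942271-98942709 and chr11:98962939-98963810 in introns, Camta1, a calmodulin-binding transcription activator gene, held chr4:151685404-151687021 and chr4:151742170-151743924, and Hs6st3, a heparan sulfate sulfotransferase gene, held chr14:119674029-119675433 and chr14:119844957-119845816.

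The members depended unequally on the 2 diplonema libraries. At distal sites with no leptonema or zygonema peak, 1275 had a peak in diplonema experiment 2 alone and 41 in experiment 1 alone, besides the 478 with both. Without diplonema experiment 1 the rule gave 1755 sites, and without experiment 2 it gave 559. When the same rule was applied to the lists of experiment 1 alone, it chose 673 sites, and 627 of these (93.2%, interval 91.0% to 94.95%) had a diplonema peak in experiment 2, against 10.0% of all distal sites of experiment 1. In leptonema and zygonema, where the choice required no peak, 68 (10.1%) and 28 (4.16%) had one in experiment 2. Over all distal sites of experiment 1 these shares were 17.2% and 36.2%. When it was applied to experiment 2 alone, it chose 1793 sites, and 500 (27.9%, interval 25.8% to 30.0%) had a diplonema peak in experiment 1, against 8.59% of all distal sites of experiment 2. Of those 1793, 15 (0.837%) and 29 (1.62%) had a leptonema and a zygonema peak in experiment 1. Over all distal sites of experiment 2 these shares were 20.4% and 43.1%. When every list was shortened to its 4883 widest peaks, the 2 shares called in diplonema were 73.2% and 67.6%.

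At the edges of the rule, 672 distal sites had a peak in both diplonema lists, and 87 of these missed the choice through a peak in a single leptonema or zygonema list. The 3 members nearest to a 5′ end were 536 bp from Pdpk1, 602 bp from Cuedc1 and 639 bp from Crybg3. The 3 sites with the same calls that lay just inside the limit for a promoter were 500, 426 and 420 bp from 5′ ends of 4930554G22Rik, Gm3619 and 1700121C08Rik. Their diplonema peaks were 941 and 1242 bp, 676 and 1163 bp, and 1446 and 1463 bp wide, and those of the 3 members were 890 and 1375 bp, 393 and 696 bp, and 1025 and 2173 bp wide. With a limit of 1000 bp in place of 500 bp, 461 members were left.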

How the data were processed

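ChIP-Seq peak lists of sorted spermatocyte nuclei were analysed, 20 of the 51 samples of the series. The other 31 were not analysed here. According to the submitters' processing notes and the methods, the authors aligned reads to mm10 with BWA 0.7.12 and called peaks per library, without pooling, with MACS2 2.1.2 in broad mode. Stage-matched input was the control for H3K4me3, and for H3K9ac the control is not given in the sources used here. The deposited columns are the start and end of each peak on chromosomes 1 to 19. They hold no count or signal, so depth is unknown and a longer list can reflect depth or purity.

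Overlapping or adjoining peaks were merged, a peak counted at a site with 1 bp of overlap, and distances were taken to 5′ ends of GENCODE M21 transcripts, with Python 3.11.15, numpy 2.4.6 and scipy 1.17.1. Libraries were compared by two-sided exact permutation tests with a threshold of 0.05. The 95% intervals are exact binomial ones and cover the counting of sites alone, and the limit for a count of 0 is 3 sites. Alternatives were a distance of 1000 bp, coding transcripts, wider peaks, equal list lengths, merging within 500 bp, 50% coverage, left-out libraries and a replicate block. RefSeq 5′ ends and the crossed block were added after seeing the data.

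Named sites were those with the widest diplonema peaks among all members, by stage of first call, and with late H3K9ac, and those at genes of 6 lists. One of them is not reported here. The members, lists, motifs and rules were chosen with earlier results of these data known. On simulated lists of 1200 sites, 200 of 200 members were recovered with 0 false ones.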

Additional observations from a re-analysis of the deposited data

How the results depend on the processing

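The number of members was 778 with protein-coding 5′ ends only, 195 with the wider peaks of each list, 268 with the 4883 widest peaks of every list, 391 with RefSeq 5′ ends added and 461 beyond 1000 bp. Leaving out 1 leptonema, zygonema or diplonema library gave 481 to 1755 members, with 1755 without diplonema experiment 1 and 559 without diplonema experiment 2. None of the 3 differences between stages changed sign under any alternative run, and none could pass the threshold at these sample sizes. For H3K4me2/3 the rule itself favours that sign, and for late minus early pachynema it may do so. Late minus early pachynema ranged from 5.74 to 47.0 points over left-out libraries and was 9.94 points when peaks had to cover 50% of a site. The H3K4me2/3 difference ranged from 27.3 to 59.8 points and the H3K9ac difference from 1.28 to 7.93 points over all alternatives, both lowest without diplonema experiment 1.

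With the replicate block by experiment number, late minus early pachynema was 26.4 points (exact permutation p = 0.500, the smallest for 2 pairs), and the crossed pairing gave the same. Deviations of same-numbered pachynema libraries from their stage means correlated at -0.15 over all merged sites, -0.05 over distal sites and 0.05 over the members. Nothing in the sources used here says that a number marks a shared sort or animal, and 2 pairs do not settle whether the numbers pair the samples.

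Sites chosen on experiment 1 had a diplonema peak in experiment 2 in 95.3% with protein-coding 5′ ends, 94.96% with the wider peaks and 73.2% with equal list lengths. For sites chosen on experiment 2 and called in experiment 1 the shares were 33.5%, 36.6% and 67.6%. The first share was above the second under these settings, by the smallest margin with equal list lengths. Depth could not be read from the lists, so a site without a peak may still carry the mark.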
